A study of Mus musculus with 6 samples.

Results

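The genes described here are 32 genes of the unfolded protein response and of protein folding in the endoplasmic reticulum (ER), taken by gene symbol from a table of 18268 genes, and all 32 symbols were found. The table gives mRNA levels in the colorectum of adult male C57BL/6 mice with colitis. All 6 mice had received dextran sulphate sodium (DSS) for 7 days, which injures the gut epithelium and causes colitis. In addition, 3 mice were given berberine (BBR), a plant alkaloid, by gavage for 6 days, and 3 mice were given sulfasalazine (SASP), an anti-inflammatory drug used for ulcerative colitis, in the same way. The labels call the tissue colonrectum in both groups, whereas the study's text speaks of rectal samples for BBR and of colon samples for SASP, so the drug and the stretch of gut cannot be told apart. Colitis mice given no drug were not analysed here, so in these data a lower level with BBR cannot be told apart from a higher level with SASP. Against untreated colitis mice, the study reports higher expression of protein folding genes with SASP. It also reports higher protein folding genes with BBR in mice without colitis. Its text does not name those genes, so they may differ from the 32 described here. Levels are FPKM, the fragments of a transcript per kilobase of its length, scaled to the mapped fragments of the library.

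Proteins bound for secretion or for membranes enter the ER, where chaperones fold them and disulphide isomerases join their cysteines. When unfolded proteins build up, the sensors IRE1 (encoded by Ern1 and, in mucus-secreting epithelium, Ern2), ATF6 and PERK start the unfolded protein response. IRE1 splices the mRNA of the transcription factor XBP1, ATF6 is cut to release a transcription factor of its own, and both raise chaperones, translocation and the degradation of misfolded proteins. In the colon this machinery serves goblet cells, which secrete mucins, and plasma cells, which secrete antibodies. FPKM per gene does not tell spliced from unspliced Xbp1 mRNA, nor cut from whole ATF6 protein.

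Some of the chaperone, disulphide, translocation and coat genes were lower in BBR than in SASP mice, while none of the sensors, transcription factors and degradation genes passed the test. Whether these groups of genes differ from each other was not tested. Of the 32 genes, 31 reached 1 FPKM in at least 3 of 6 mice and were tested with limma on log2(FPKM + 1), with p-values adjusted over 12072 genes. Derl3 alone did not reach that level. The adjusted p was under 0.05 for 7 of the 31 genes (22.6%), all lower in BBR: Creld2, Sec23b, Hsp90b1, Pdia4, Sdf2l1, Ssr1 and Dnajb11. Over all tested genes, 8.86% passed in either direction, 5.04% as lower in BBR and 3.82% as higher in BBR. None of the 31 was called higher in BBR by limma, and none of them had an unadjusted p under 0.05 in that direction.

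The values per mouse, the same ones that limma tested and so no separate evidence, lay in the same direction. The members were chosen with earlier results of these data known, so the shares below only describe them. In 19 of the 31 genes (61.3%) all BBR mice lay below all SASP mice, against 16.6% of all tested genes. In none did all BBR mice lie above all SASP mice, against 21.3% of all tested genes. The remaining 12 genes overlapped between the groups. The median difference of the 31 genes, BBR minus SASP on the log2(FPKM + 1) scale, was -0.405, and that of all tested genes was 0.097. An exact permutation test of a single gene cannot give a p below 0.10 with 3 mice against 3, so the calls rest on the spread that limma shares across genes. The number of calls moved with single mice: it was 0 without BBR mouse 1, BBR mouse 2, SASP mouse 1 or SASP mouse 3. It was 2 without SASP mouse 2 (Creld2 and Sec23b) and 22 without BBR mouse 3, of which 20 were lower in BBR. In the fits with 0 calls, 16 or 17 members had an unadjusted p under 0.05, and the share of all genes at that level was not computed. With all 6 mice, limma gave an unadjusted p of at most 0.05 to 58.1% of the members and 31.8% of all tested genes. The share of all genes called moved as well, from 0.428% without SASP mouse 3 to 33.8% without BBR mouse 3.

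**Figure D1:**
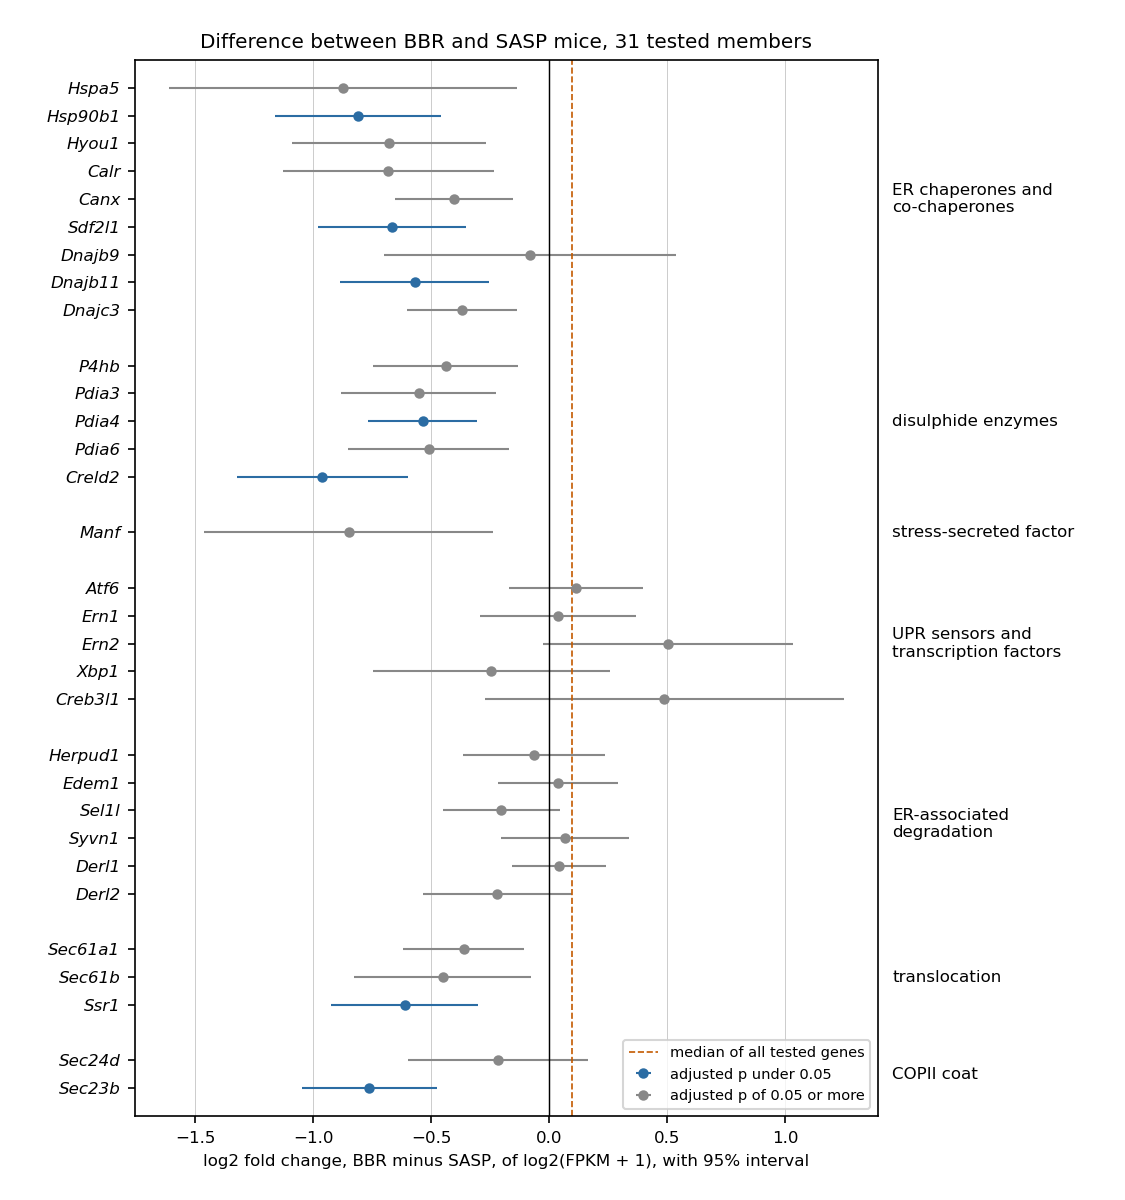
Difference between BBR and SASP mice (log2 fold change of log2(FPKM + 1), horizontal axis) for each of the 31 tested genes, grouped by role, with 95% intervals from limma. Blue marks the 7 genes with an adjusted p under 0.05, and the dashed line is the median of all tested genes (0.097): 24 genes lie below 0, and the intervals of the sensors, transcription factors and degradation genes all cover 0.

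Many genes of this response carry a short promoter sequence called the ER stress response element (ERSE), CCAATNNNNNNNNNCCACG, which NF-Y and ATF6 or XBP1 are known to bind. It was looked for on both strands in windows from 250 bases before to 50 bases after the annotated start, taken from RefSeq (GRCm38.p6), which held 25 of the 32 genes. The other 7 had no window and were not searched: Hyou1, Manf, Atf6, Ern2, Creb3l1, Derl1 and Sec61a1. The 19 letters were present in 9 of these 25 genes (36%), and in 37 of the 27025 genes with a window (0.137%), or 0.119% of the 32851 windows. The matches are shown because they are what some of the members share at sequence level. In each, the capitals mark the CCAAT and CCACG ends, read on the strand that carries the element, and the lower case letters are the spacer, which differs from gene to gene.
Hspa5: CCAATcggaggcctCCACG
Hsp90b1, first site: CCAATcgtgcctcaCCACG
Hsp90b1, second site: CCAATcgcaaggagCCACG
Creld2: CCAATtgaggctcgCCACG
Calr: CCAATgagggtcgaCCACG
Canx: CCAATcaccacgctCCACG
Dnajc3: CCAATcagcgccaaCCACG
Pdia6: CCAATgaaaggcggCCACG
Syvn1: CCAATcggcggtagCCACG
Derl3: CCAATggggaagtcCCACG

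The element ran on the strand of the gene in Hspa5, Canx, Dnajc3, Pdia6 and Syvn1 and on the opposite strand in Creld2, Calr and Derl3, and Hsp90b1 had a site on each strand. Its upstream end was 44 bases before the start in Syvn1 and 65 bases before it in Hspa5. In Pdia6, Dnajc3, Creld2, Canx, Derl3 and Calr it was 98 to 162 bases before the start. The sites of Hsp90b1 began 107 and 212 bases before the start. The shorter element ERSE-II, ATTGGNCCACG, was found in Dnajb11 (ATTGGcCCACG, just after the start) and in Herpud1 (ATTGGgCCACG, 52 bases before it), and in 0.0365% of all windows. The 8 letters TGACGTGG, the core of the element bound by XBP1 (UPRE), were found in Sec24d and in 0.676% of all windows. The cyclic AMP element TGACGTCA was in none of the 25 genes and in 1.79% of all windows.

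For Creld2 and Hsp90b1, which passed the test, and for Hspa5, the best known target of the response, the 250 bases before the start are given 5′ to 3′ on the strand of the gene, with the whole element in capitals (reverse complemented where it lies on the opposite strand). Creld2 is at chr15:88819396-88819645 on the plus strand, Hsp90b1 at chr10:86705445-86705694 on the minus strand and Hspa5 at chr2:34771840-34772089 on the plus strand, all in GRCm38.p6.
Creld2: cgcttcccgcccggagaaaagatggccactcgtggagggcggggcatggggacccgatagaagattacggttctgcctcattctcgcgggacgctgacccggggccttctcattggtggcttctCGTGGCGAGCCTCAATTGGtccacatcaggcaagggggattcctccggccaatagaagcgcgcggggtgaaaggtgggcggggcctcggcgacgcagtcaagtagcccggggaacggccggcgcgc
Hsp90b1: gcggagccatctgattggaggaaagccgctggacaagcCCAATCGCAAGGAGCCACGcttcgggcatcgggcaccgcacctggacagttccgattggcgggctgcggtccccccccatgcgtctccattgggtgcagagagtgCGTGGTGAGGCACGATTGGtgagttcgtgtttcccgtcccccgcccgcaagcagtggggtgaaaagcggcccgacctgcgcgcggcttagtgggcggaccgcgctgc
Hspa5: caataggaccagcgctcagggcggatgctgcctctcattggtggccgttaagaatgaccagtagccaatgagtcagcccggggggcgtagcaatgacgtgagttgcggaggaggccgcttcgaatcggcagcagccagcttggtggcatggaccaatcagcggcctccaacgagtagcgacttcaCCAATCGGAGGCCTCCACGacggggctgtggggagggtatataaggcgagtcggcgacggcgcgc

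The genes with an ERSE did not all have the same outcome, and the part of the element was not tested. Of the 8 tested members with an ERSE, 7 had all BBR mice below all SASP mice, and Syvn1 overlapped. That order held for 61.3% of all 31 tested members, with or without the element, and for 16.6% of all tested genes. Outside the members, 8 tested genes had an ERSE. Of these, 5 were lower in BBR by direction (39.2% of all tested genes), and 2 had all BBR mice below all SASP mice. Their median difference was -0.037, against 0.097 for all tested genes. The 1 of them that passed the test (5.04% of all tested genes were called lower) was Spats2l, named after its values were seen. Its difference was -1.30 (adjusted p = 0.0329). Conversely, Sdf2l1, Pdia4, Ssr1 and Sec23b passed the test with neither ERSE nor ERSE-II in their windows, which says only that these letters are not there.

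The ER chaperones and their partners form the largest group, with 9 genes. All 9 were lower in BBR by direction (39.2% of all tested genes were), and 3 passed the test (5.04% were called lower). In 8 of them all BBR mice lay below all SASP mice (16.6% of all tested genes). Hsp90b1 encodes GRP94, the HSP90 of the ER. It was at 186, 230.4 and 255 FPKM in the BBR mice and at 424, 360.4 and 387 FPKM in the SASP mice. The highest BBR mouse was thus well under the lowest SASP mouse, and the difference was -0.81 ± 0.15 (log2, SE, adjusted p = 0.026), with SASP 1.74-fold higher by mean FPKM. Sdf2l1, which works with the HSP70 of the ER, was at 18.7, 21.8 and 25.4 FPKM with BBR and at 34.4, 38.0 and 33.2 FPKM with SASP (-0.67 ± 0.13, adjusted p = 0.03275). Dnajb11 encodes ERdj3, a co-chaperone that hands unfolded proteins to the same HSP70. It was at 62.0, 64.5 and 83.5 FPKM with BBR and at 109, 101 and 101 FPKM with SASP (-0.57 ± 0.13, adjusted p = 0.046). These 3 genes had no BBR mouse within the range of the SASP mice.

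Hspa5, which encodes that HSP70 (BiP), had a large but uneven difference. Its level was 183, 189 and 419 FPKM with BBR and 429, 446 and 472 FPKM with SASP. BBR mice 1 and 2 were far below the SASP mice, whereas BBR mouse 3 came close to the lowest of them. The difference of -0.88 had an SE of 0.31 and an adjusted p of 0.111, with an interval from -1.61 to -0.14. Calr, the lectin chaperone calreticulin and the member with the highest mean level, showed the same order: 358, 385 and 559 FPKM with BBR and 728, 675 and 649 FPKM with SASP (-0.68, adjusted p = 0.0656). Hyou1, another large chaperone of the HSP70 kind, was at 24.4, 27.3 and 38.9 FPKM with BBR and at 46.7, 46.4 and 51.1 FPKM with SASP (-0.68, adjusted p = 0.0565). In all 3 genes BBR mouse 3 stood between the other BBR mice and the SASP mice.

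The membrane lectin calnexin (Canx) was at 87.0 to 104 FPKM with BBR and at 120.5 to 133 FPKM with SASP, and its adjusted p was 0.059. Dnajc3, a co-chaperone known to inhibit the kinase PERK, was at 29.5 to 34.1 FPKM with BBR and at 39.2 to 41.9 FPKM with SASP, with an adjusted p of 0.0613. Both were separate between groups without passing the threshold. Dnajb9 (ERdj4), a co-chaperone that restrains IRE1, was the exception. It was at 38.0, 29.6 and 60.5 FPKM with BBR and at 36.1, 44.0 and 51.1 FPKM with SASP. The groups overlapped, and the interval of the difference ran from -0.70 to 0.53.

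**Figure D2:**
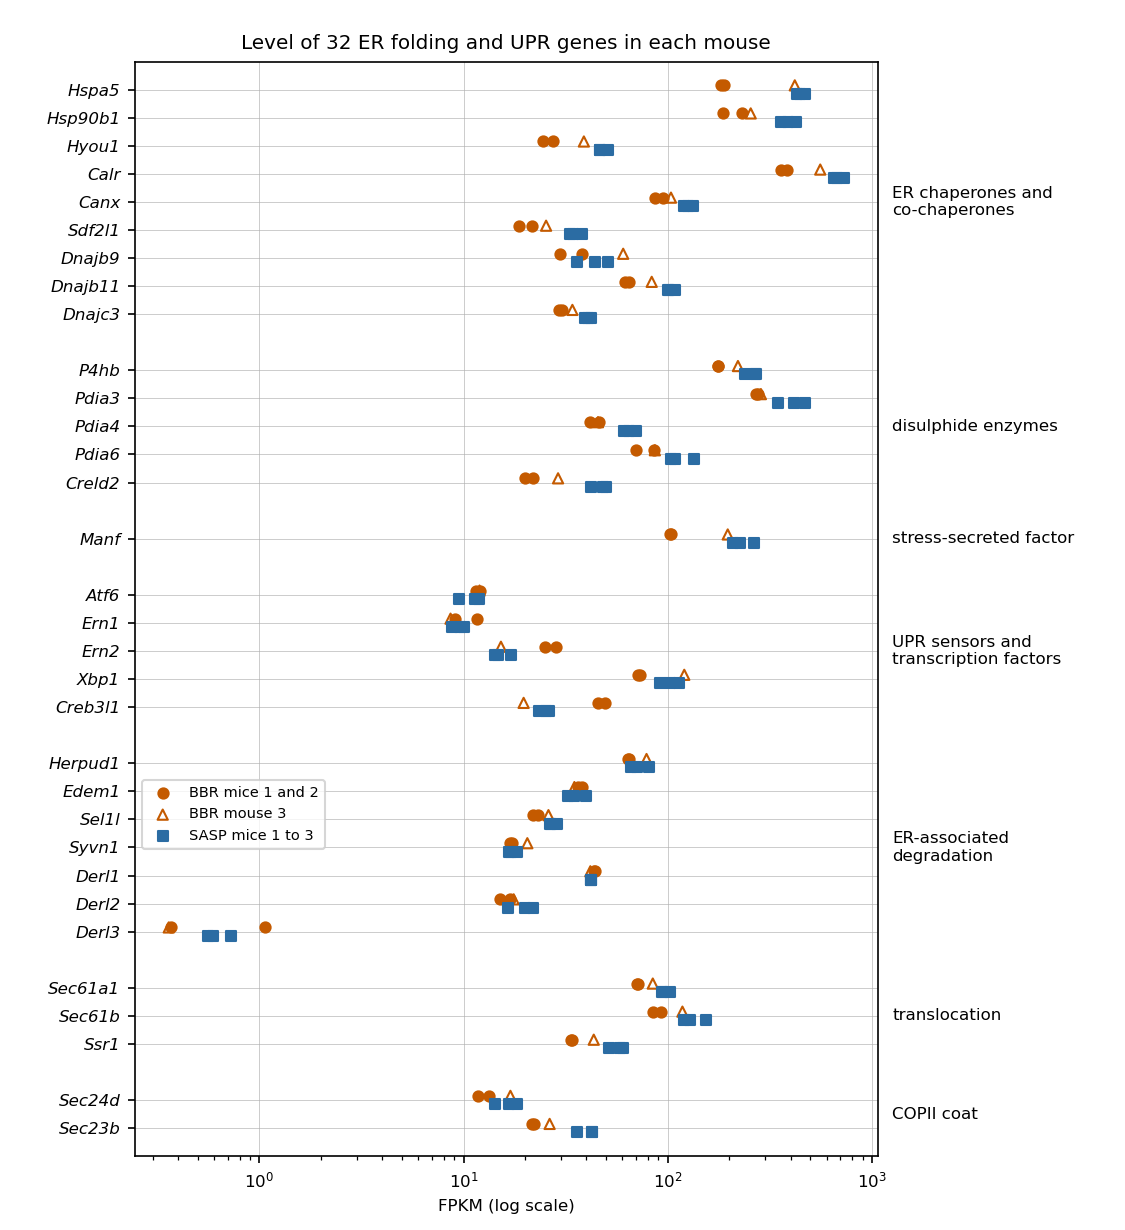
FPKM of each of the 32 genes in every mouse, on a log10 axis, with the genes grouped by role: filled circles are BBR mice 1 and 2, open triangles BBR mouse 3 and squares the SASP mice. The BBR points lie left of all SASP points in 19 tested genes, among them Hsp90b1, Creld2 and Sec23b, and mix with them in the sensors and most degradation genes.

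The 5 disulphide genes were all lower in BBR and separate between groups (16.6% of all tested genes were), and 2 of them passed the test (5.04% were called lower). Creld2, a secreted ER protein with disulphide isomerase activity that ER stress induces, had the largest difference of all members. Its level was 20.1, 21.9 and 29.1 FPKM with BBR and 49.7, 42.1 and 48.2 FPKM with SASP. The SASP mean was 1.97-fold the BBR mean, a difference of -0.96 ± 0.15 (adjusted p = 0.0189). Pdia4 (ERp72) differed less but with little scatter: it was at 41.9, 46.3 and 45.6 FPKM with BBR and at 69.8, 64.7 and 61 FPKM with SASP (-0.54 ± 0.10, adjusted p = 0.026). The other 3 enzymes were separate between groups and missed the threshold. Pdia3 (ERp57), which serves glycoproteins held by calnexin and calreticulin, was at 276, 271 and 286 FPKM with BBR and at 471, 347 and 415 FPKM with SASP (adjusted p = 0.0542). P4hb, the classical protein disulphide isomerase, was at 176 to 221 FPKM against 239 to 270.1 FPKM (adjusted p = 0.0746), and Pdia6 was at 69.7 to 86.5 FPKM against 103 to 135 FPKM (adjusted p = 0.0684).

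Manf, a small factor that is secreted under ER stress and binds BiP, followed Hspa5. It was at 104, 103 and 197 FPKM with BBR and at 264, 209 and 226 FPKM with SASP. BBR mouse 3 was again nearest to the SASP mice, and the difference of -0.85 ± 0.26 had an adjusted p of 0.0798.

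The genes that carry proteins into and out of the ER were lower in BBR in part. Ssr1, a subunit of the TRAP complex beside the translocation channel, was at 33.9, 33.6 and 43.4 FPKM with BBR and at 60.3, 51.7 and 58.5 FPKM with SASP (-0.61 ± 0.13, adjusted p = 0.0386). The channel subunits Sec61a1 (70.9 to 84.5 against 94.1 to 103 FPKM, adjusted p = 0.0763) and Sec61b (84.9 to 118 against 120.4 to 155 FPKM, adjusted p = 0.107) were separate between groups but did not pass. Sec23b, a subunit of the COPII coat that buds vesicles from the ER, was at 22.2, 21.8 and 26.4 FPKM with BBR and at 42.4, 36.1 and 42.8 FPKM with SASP. Its SASP mean was 1.72-fold the BBR mean (-0.76 ± 0.12), and it had the smallest adjusted p of the members (0.0187). Sec24d, its partner in the coat that picks cargo, was at 11.8, 13.3 and 17.0 FPKM with BBR and at 14.2, 16.7 and 18.2 FPKM with SASP. Unlike Sec23b it overlapped between the groups, and its interval of -0.60 to 0.16 covered 0.

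None of the 5 sensors and transcription factors passed limma's test, and none had an unadjusted p under 0.05. Their median difference was 0.112, close to that of all tested genes. Atf6 was at 12.04, 11.57 and 11.98 FPKM with BBR and at 9.46, 11.42 and 11.97 FPKM with SASP. Ern1, the IRE1 sensor found in most cells, was at 11.7, 9.13 and 8.64 FPKM with BBR and at 8.82, 9.58 and 10.03 FPKM with SASP. Both had mean levels near the median of all tested genes (10 FPKM) and overlapped between the groups, with intervals of -0.17 to 0.40 and of -0.29 to 0.37. Xbp1, the factor downstream of IRE1, was at 72.8, 71.8 and 121 FPKM with BBR and at 91.5, 113 and 102 FPKM with SASP. BBR mouse 3 had the highest Xbp1 level of all 6 mice and the other BBR mice the lowest, so the groups overlapped (-0.25 ± 0.21, adjusted p = 0.447).

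Ern2 and Creb3l1, known from goblet cells in the colon, split the BBR mice the other way. Ern2 was at 25.2, 28.3 and 15.2 FPKM with BBR and at 14.8, 14.3 and 17.1 FPKM with SASP. Creb3l1, which encodes the membrane-bound factor OASIS, was at 45.3, 49.2 and 19.7 FPKM with BBR and at 23.4, 25.4 and 26.1 FPKM with SASP. BBR mice 1 and 2 were above every SASP mouse in both genes, whereas BBR mouse 3 was within the SASP range for Ern2 and below it for Creb3l1. The intervals of the differences, -0.02 to 1.03 for Ern2 and -0.27 to 1.25 for Creb3l1, covered 0. The goblet cell marker list, which leaves out Ern2 and Creb3l1, had its highest sum in BBR mouse 3, at 24650 FPKM against 14300 and 12530 FPKM in BBR mice 1 and 2. Muc2, the main mucin, was at 660, 606 and 1168 FPKM in the BBR mice. These 2 members were thus lowest among the BBR mice where the summed goblet markers were highest.

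The genes of ER-associated degradation, which draws misfolded proteins out of the ER for the proteasome, showed no difference past the threshold. None of the 6 tested passed limma's test or had an unadjusted p under 0.05, and their median difference was -0.015. Derl1, a channel component, was at 43.7, 44.2 and 41.8 FPKM with BBR and at 41.9, 42.1 and 41.9 FPKM with SASP, with an interval of -0.16 to 0.24. Syvn1, the ubiquitin ligase HRD1, was at 16.8 to 20.5 FPKM with BBR and at 16.6 to 18.2 FPKM with SASP, and its partner Sel1l was at 21.9 to 26.1 FPKM against 26.6 to 28.8 FPKM. Sel1l was the only one of the 6 with separate groups (16.7%, against 16.6% of all tested genes with BBR below SASP), and its adjusted p was 0.225. Herpud1, an ERSE-II carrier that recruits HRD1, was at 64.1 to 78.8 FPKM with BBR and at 66.0 to 80.7 FPKM with SASP, and Edem1, a lectin that selects glycoproteins, was at 34.9 to 38.2 FPKM against 32.7 to 39.6 FPKM. Derl2 was at 15.1 to 17.6 FPKM with BBR and at 16.5 to 22.0 FPKM with SASP. Derl3 was at 0.37, 1.06 and 0.36 FPKM with BBR and at 0.59, 0.73 and 0.56 FPKM with SASP. At the estimated depth this corresponds to about 8 to 23 reads a mouse. Derl3 stayed under the minimum level for the test, and its BBR values lay on both sides of the SASP values.

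Most members had levels above the median of all tested genes. Their mean levels ran from 9.64 FPKM (Ern1) to 559 FPKM (Calr) among those tested, with a median of 43.2 FPKM against 10 FPKM for all tested genes. Together the 32 genes made up 0.487, 0.515 and 0.664% of the summed FPKM in the BBR mice and 0.816, 0.767 and 0.781% in the SASP mice. The highest BBR share was below the lowest SASP share. In whole tissue, fewer cells of a type and less RNA per cell cannot be told apart.

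BBR mouse 3 differed from the other BBR mice in these genes. It had the highest BBR value in 24 of the 31 tested members (77.4%), against 22.8% of all tested genes. Its median difference from the mean of BBR mice 1 and 2 was 0.258 over the members and -0.191 over all tested genes. Its level was 2.25 times that mean for Hspa5, 1.9 times for Manf, 1.79 times for Dnajb9, 1.67 times for Xbp1 and 1.5 times for Calr and Hyou1. It was 1.03 times for Pdia4 and 1.05 times for Pdia3. Ern2 and Creb3l1 went the other way, at 0.571 and 0.417 times. In 20 members BBR mouse 3 lay between the mean of the other BBR mice and the SASP mean (64.5%, against 32.8% of all tested genes). Cell type markers set this mouse apart as well. Summed smooth muscle markers were at 9472 FPKM in it against 4209 and 4589 FPKM in BBR mice 1 and 2, and summed proliferation markers at 72.3 against 122 and 129 FPKM. The goblet sum, given above, was also highest in it. The part of these markers in the members' levels in this mouse was not tested. BBR mouse 3 also stood apart over the whole table: its log2 levels correlated at 0.953 and 0.949 with BBR mice 1 and 2, which correlated at 0.987 with each other, and SASP mice correlated at 0.982 to 0.989. With SASP mice 1, 2 and 3 it correlated at 0.92, 0.953 and 0.944, so it was about as close to SASP mouse 2 as to its own group. BBR mice 1 and 2 correlated at 0.916 to 0.953 with the SASP mice. Without this mouse, 22 of the 31 members (71%, against 33.8% of all tested genes) passed the test, among them Ern2 and Creb3l1 as higher in BBR.

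**Figure D3:**
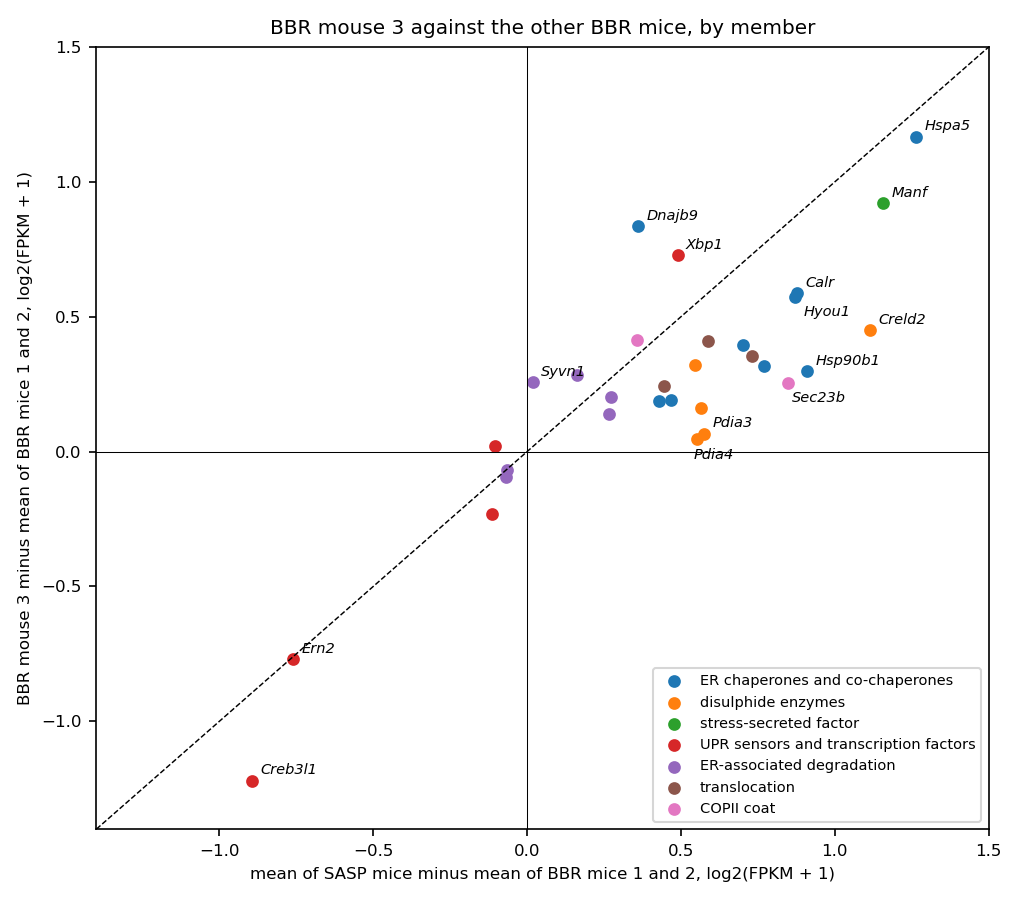
Each point is a tested member: the horizontal axis gives the SASP mean minus the mean of BBR mice 1 and 2, and the vertical axis BBR mouse 3 minus that same mean, both on the log2(FPKM + 1) scale. Both axes subtract the same BBR mean, so the points share that term. On the dashed line BBR mouse 3 equals the SASP mean: Hspa5, Manf and Ern2 lie near it, Dnajb9 and Xbp1 above it, and Pdia3 and Pdia4 near the horizontal axis.

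The rest of the ER machinery was set beside the members with 6 lists of other ER genes, 140 in all, of which 134 were tested. Of these, 5 were called lower and 3 higher in BBR (5.97% in either direction, against 8.86% of all tested genes). Their median difference was -0.047, against -0.405 for the members and 0.097 for all tested genes. In 27.6% of them all BBR mice lay below all SASP mice, against 61.3% of the members and 16.6% of all tested genes. By list this share ran from 3.85% (other degradation genes) to 58.3% (oligosaccharyltransferase genes), the latter close to that of the members. Among 28 other folding genes, 2 were lower: Uggt1, which checks the folding of glycoproteins (-0.47 ± 0.10, adjusted p = 0.0346), and the membrane disulphide enzyme Tmx1 (-0.40 ± 0.09, adjusted p = 0.046). The prolyl isomerases Fkbp14 (0.69 ± 0.13, adjusted p = 0.0307) and Fkbp9 (0.84 ± 0.17, adjusted p = 0.0359) were higher. Beside the member Ssr1, the signal peptidase subunit Spcs2 was lower among 21 other translocation genes (-0.51 ± 0.12, adjusted p = 0.0435), and the ribophorin Rpn1 was lower among 12 oligosaccharyltransferase genes (-0.58 ± 0.11, adjusted p = 0.0279). Of 26 other degradation genes and 29 other COPII and ER-Golgi genes, limma called 0, with 2 and 4 at an unadjusted p under 0.05. Of 18 other sensor, transcription factor and PERK arm genes tested, 1 was called higher and 1 lower, and 9 were higher and 9 lower by direction. Ddit3 (CHOP), the death-linked factor of the PERK arm, was higher in BBR at 18.6, 17.8 and 15.2 FPKM against 11.8, 11.5 and 12.3 FPKM (0.50 ± 0.11, adjusted p = 0.0446). Eif2s1, which encodes the translation factor that PERK phosphorylates, was lower (-0.48 ± 0.10, adjusted p = 0.0361).

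**Figure D4:**
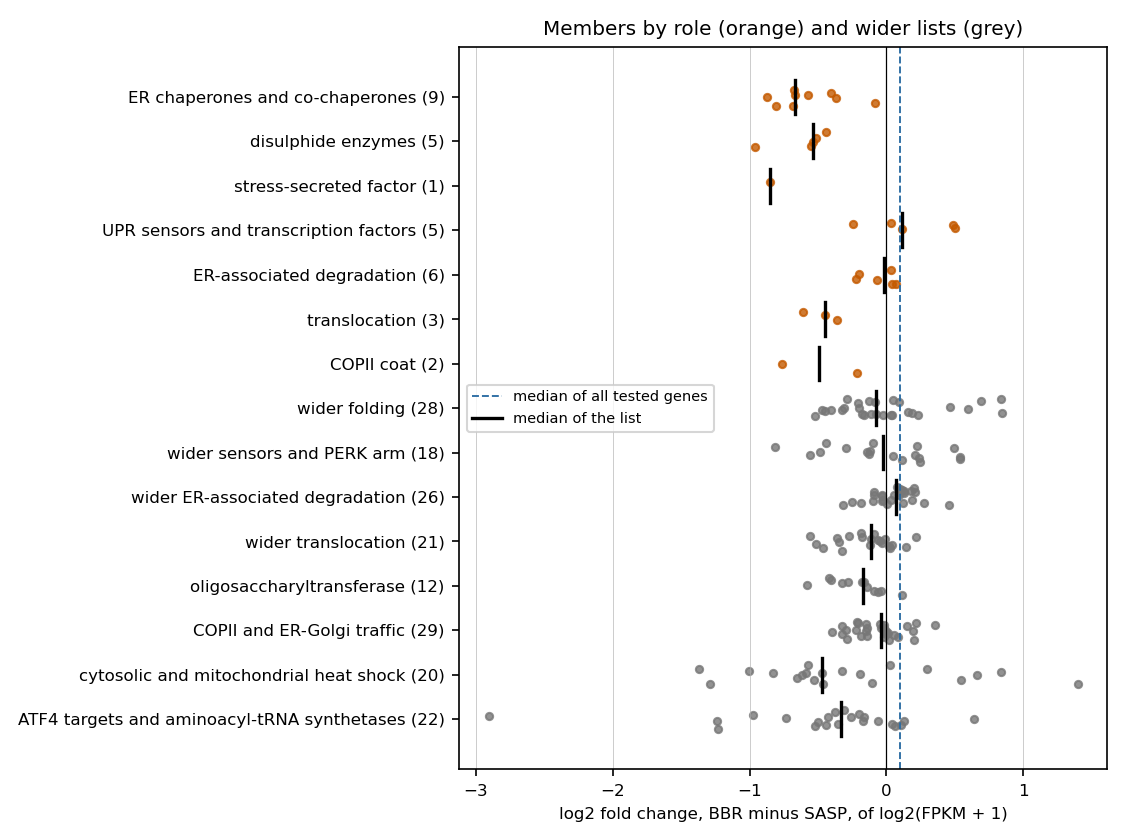
Differences between BBR and SASP (log2 fold change of log2(FPKM + 1)) of each tested gene, with the members by role in orange and the lists of other ER genes, heat shock genes and ATF4 targets in grey, and the number of tested genes in brackets. Black bars are list medians and the dashed line is the median of all tested genes (0.097): the member chaperones lie lowest among the larger ER groups (median -0.665), and the 6 wider ER lists have medians from -0.173 to 0.067.

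Some chaperones outside the ER were lower in BBR too. Of 20 cytosolic and mitochondrial heat shock genes, 4 were called lower (20%, against 5.04% of all tested genes) and 0 higher, with a median difference of -0.468. In 11 of the 20 (55%) all BBR mice lay below all SASP mice, against 61.3% of the members and 16.6% of all tested genes. By direction 14 were lower and 6 higher, and in 2 of the 6 all BBR mice lay above all SASP mice without passing the threshold: Hspb1 (1.40, adjusted p = 0.0607) and Dnajb4 (0.84, adjusted p = 0.0744), both named after their values were seen. Those called were Hspe1 and Hspd1, the chaperonin of mitochondria, Hspa4l (-1.003 ± 0.152, adjusted p = 0.0173) and Hsp90aa1, the cytosolic relative of Hsp90b1 (-0.83 ± 0.15, adjusted p = 0.0243). Of 22 targets of ATF4 and aminoacyl-tRNA synthetases, 3 (Wars, Psat1 and Mthfd2) were called lower (13.6%) and 0 higher, with a median of -0.33. In 12 of these 22 (54.5%) all BBR mice lay below all SASP mice. The tryptophanyl-tRNA synthetase gene Wars, which interferon gamma induces, had the largest difference of them (-2.90 ± 0.34, adjusted p = 0.00835). Lower levels were thus not confined to ER genes in these lists.

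Markers of cell types in the tissue moved with the groups as well. All 14 smooth muscle markers were higher in BBR by direction (60.8% of all tested genes were). Of them, 0 passed limma's test and 12 had an unadjusted p under 0.05. Of 10 fibroblast markers, 4 (Thy1, Col3a1, Lum and Col1a1) were called higher. For these and the counts below, 3.82% of all tested genes were called higher and 5.04% lower, and 31.8% had an unadjusted p of at most 0.05 in limma. The sum of 14 smooth muscle markers was 4209 to 9472 FPKM with BBR and 1283 to 3513 FPKM with SASP, and that of 10 fibroblast markers was 359.6 to 482 FPKM against 170.5 to 281 FPKM. The sum of 10 proliferation markers was 72.3 to 129 FPKM against 239 to 310.0 FPKM, and 5 of the 10 (Pcna, Birc5, Top2a, Mcm2 and Cdk1) were called lower in BBR. The sums of 12 epithelial markers (8512 to 9273 against 8784 to 10050 FPKM) overlapped, with Krt18 and Cdx2 called higher and Vil1 lower. Those of 12 goblet cell markers (12530 to 24650 against 10750 to 15840 FPKM) overlapped as well, with Bcas1 called higher. So did those of 8 plasma cell markers (80.2 to 194 against 61.4 to 100.1 FPKM), of which Sdc1 was called higher and Prdm1 lower. The 8 macrophage markers summed to 105 to 130.1 against 195 to 227 FPKM, but of the 6 tested only Cd14 was called lower, 3 were higher and 3 lower by direction, and the median difference was -0.037. The gap in that sum came mostly from Cd14 (20.3 to 32.3 against 75.7 to 116 FPKM). The sums weigh abundant genes most, the markers named here as called were chosen after their values were seen, and no marker of these lists was at 0 in all mice. With the smooth muscle level of each mouse added to the fit, limma called 0 members and 18 of all 12072 genes (0.149%). In that fit 19 members had an unadjusted p under 0.05, and the median difference of the 31 tested members was -0.493. The share of all genes at that unadjusted p was not computed for it. The smooth muscle sums of the groups do not overlap, so with 6 mice this fit cannot tell the drug from the smooth muscle level. The part of the cell makeup in the levels of the members was thus not tested.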

How the data were processed

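RNA of whole colorectal tissue from 6 mice (3 BBR, 3 SASP) was sequenced by the authors. The methods name rRNA depletion, SOAPnuke filtering and single-end reads on a BGISEQ-500, whereas the labels name an Illumina TruSeq kit. Per the labels' processing notes, Bowtie2 2.2.5 and RSEM 1.2.12 were used with build mm9. The annotation is not given in the sources used here. The authors deposited FPKM per gene, without counts, so the depth was only estimated, at 1.64e+07 to 1.82e+07 reads per mouse. For this, genes above 0 in 1 mouse only and with a transcript under 1500 bases were assumed to hold 1 read each. There were 31 to 56 such genes per mouse, and the median of their estimates was taken. Symbols altered by a spreadsheet (10) were restored by Gene ID.

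Genes of at least 1 FPKM in at least 3 of 6 samples were kept and log2(FPKM + 1) was fitted with limma 3.58.1 (R 4.3.3), with a mean-variance trend, two-sided moderated tests and Benjamini-Hochberg adjustment over all tested genes, at a threshold of 0.05. A fold change on this scale understates the change of low genes. The script was tested on simulated data. The study used an unadjusted p, kept as an alternative. Mice are numbered in accession order, and the numbers pair nothing. The labels do not say that each sample is a separate mouse; it is taken as one, and otherwise the p-values measure only the spread between these samples.

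All members are named, with values per mouse for those past the threshold and for the sensors and transcription factors, and for further members to show their spread. From each other list at most the 2 genes with the smallest p on either side were to be named, and only past the threshold. Hspe1, Hspd1 and Mthfd2 passed it too and are named beyond that rule, after their values were seen, as are the genes marked so in the text. The members and lists were chosen with earlier results of these data known, so no list has a test of its own. Promoter sequences are from RefSeq, matched by Gene ID, and protein sequences were not used here. Ern2 and Creb3l1 belong to the goblet cell and Xbp1 to the plasma cell marker list as well, and were left out of those sums.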

Additional observations from a re-analysis of the deposited data

How the results depend on the processing

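Over 16 alternative settings, the 7 genes called lower kept that direction, and their calls were lost in 5 (Creld2, Sec23b) to 9 (Dnajb11) of them. With array quality weights 25 members passed the threshold (2 of them, Ern2 and Creb3l1, as higher in BBR), and 59% of all genes were then called. At an unadjusted p of at most 0.05 it was 18 members (58.1%, against 31.8% of all genes). With a smooth muscle covariate 0 members and 18 of all genes were called, and 19 members had an unadjusted p under 0.05. That covariate differs between the groups, so its fit cannot tell the drug from the smooth muscle level. Leaving out each mouse in turn gave 0 to 22 members, as described above, and medians of -0.489 to -0.343. The median was -0.337 with quantile normalization, -0.538 with median-ratio scaling, -0.5 with array weights and -0.493 with the smooth muscle covariate. The median-ratio scaling moved the median of all genes by -0.118, and relative to it the members' median was -0.502 without and -0.517 with that scaling. Of all genes called, 70.4% were lower in BBR with it, against 56.9% without, and all called members were lower in both. The cause of these moves was not tested.

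Directions turned in 7 members, all of them overlapping between the groups. With median-ratio scaling Atf6 was at -0.011, Ern1 at -0.085, Derl1 at -0.09, Edem1 at -0.094 and Syvn1 at -0.06, and with quantile normalization Ern1 was at -0.027. With the smooth muscle covariate Atf6 was at -0.045 and Syvn1 at -0.081, and with array weights Syvn1 was at -0.047. With 1 mouse left out, Ern1 ranged from -0.083 to 0.114, Edem1 from -0.023 to 0.113, Syvn1 from -0.019 to 0.118, Dnajb9 from -0.361 to 0.144 and Herpud1 from -0.161 to 0.014.

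No paired analysis was possible because the labels number no replicates. Depth was estimated and not given, so no counting interval was made for FPKM values. With 3 mice in a group, spread between mice limits every comparison.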
